A study of Homo sapiens with 10 samples.

Results

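The genes of the proteasome were examined in the RNA of U2OS cells, a human osteosarcoma line whose name the sample labels spell U20S, after knockdown of the helicase gene DDX41. Members were chosen by name: protein-coding genes whose symbol starts with PSMA to PSMG and a number, plus SEM1, a small subunit with a symbol of its own, and NFE2L1, a transcription factor of these genes. The rule gave 52 genes of the 63299 gene identifiers in the count tables, spread over 17 chromosomes. They were sorted by role into the alpha ring (7 genes) and beta ring (7) of the 20S core, the base (9) and lid (9) of the 19S regulatory particle, immunoproteasome subunits (3), tissue-specific subunits (2), assembly factors (7), activators and the inhibitor PSMF1 (5), NFE2L1 (1), and genes that carry a proteasome name without being subunits (2).

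Cells were transfected with a control siRNA pool (siCtrl, 5 libraries) or an siRNA pool against DDX41 (siDDX41, 5 libraries), and polyadenylated RNA was taken 48 h later. No other treatment or allele is named in the labels for either group. Both groups come from a single cell line, and nothing in the labels says whether the replicates were separate cultures, so the p-values measure the spread between these libraries, which may be technical. The libraries held 21807041 to 24896398 counts each.

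The proteasome is the protease that degrades proteins tagged with ubiquitin. Its 20S core is a stack of alpha rings, which control entry, around beta rings, which hold the catalytic sites, and the 19S particle caps the core, binds the ubiquitin chain, unfolds the substrate and feeds it in. Immunoproteasome subunits take the place of catalytic beta subunits in immune cells and after interferon, dedicated chaperones build the rings and the base, and when the proteasome is blocked the transcription factor NFE2L1 escapes degradation and raises the genes of the subunits.

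Most tested proteasome genes moved by a small amount, and more of them rose than fell. Of the 52 members, 46 passed the filter on low counts. Among these, 24 rose (52.2%), 7 fell (15.2%) and 15 were not called (32.6%) at an adjusted p under 0.01 in the quasi-likelihood test of edgeR (Benjamini-Hochberg adjusted over all 16143 genes tested), where 30.3% of genes were called up and 32.1% down. The share of rising members therefore lay above the background and the share of falling members below it. When a log2 fold change beyond 0.25 was also required, 9 members rose (19.6%) and 4 fell (8.7%), against 21.1% of all genes up and 25.4% down, so at this size the rising share was no longer above the background. The libraries of the 2 groups did not overlap in 20 members that were higher after knockdown (43.5%) and 7 that were lower (15.2%), against 26.7% and 29.3% of all genes. The counts of each class and subset of members given below stand against the same shares, 30.3% up and 32.1% down. The median log2 fold change was 0.10 over the tested members and -0.00 over all tested genes, and the median absolute change was 0.16 and 0.28.

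**Figure D1:**
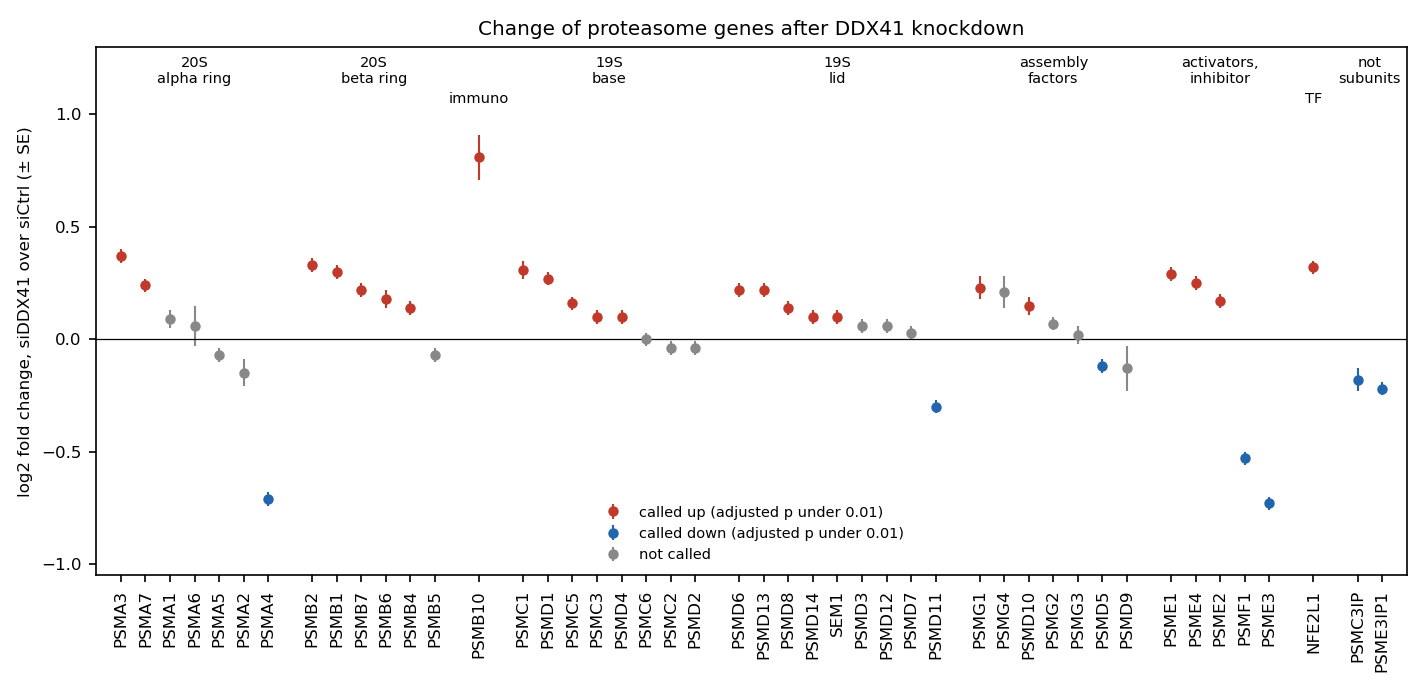
Log2 fold change (siDDX41 over siCtrl, 5 libraries each) of the 46 tested members, ordered by class and by size of change, with bars for ± 1 standard error. TF marks the transcription factor NFE2L1 and colours mark calls at an adjusted p under 0.01. Most points lie between -0.30 and 0.37, while PSMB10 stands at 0.81 and PSMA4, PSME3 and PSMF1 at -0.71, -0.73 and -0.53.

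The knockdown was visible in every library. DDX41 stood at 48.7 ± 1.43 CPM (the usual scale of reads relative to a library's total, here with TMM factors, mean ± SD, n = 5) in the controls and at 12.2 ± 1.00 CPM after knockdown, a log2 fold change of -1.99 ± 0.05 (SE, adjusted p = 4.47e-24, edgeR's quasi-likelihood test). Among the 5 knockdown libraries, replicate 2 kept the highest DDX41 level, 13.7 CPM. The same library was the lowest of its group in 21 of the 24 rising members, and in 32.8% of all 4890 genes called up. Its part in the member results was not tested beyond leaving it out, which gave 25 rising and 7 falling members. Of the osteosarcoma markers, COL1A1 stood at 1875 CPM and COL1A2 at 0.448 CPM in the controls, and the 5 markers summed to 7031 to 7310 CPM in the controls and 7091 to 7491 CPM after knockdown. The 7 leukocyte markers summed to at most 1.58 CPM in any library, with CD3E at 0, and the 4 epithelial markers to 13.6 to 15.1 CPM in the controls and 8.94 to 10.9 CPM after knockdown. These sums hide single genes: KRT5 went from 5.24 to 0.488 CPM while EPCAM stood at 7.99 and 8.31 CPM, and RUNX2 changed by -0.40 on the log2 scale.

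In the alpha ring, PSMA4 fell while PSMA3 and PSMA7 rose, and the remaining 4 genes were not called. PSMA4, one of the ring's structural subunits, stood at 270.9, 265.5, 266.2, 272.5 and 257.6 CPM in the control libraries and at 160.9, 158.5, 166.3, 165.1 and 161.4 CPM after knockdown. Every knockdown library lay far below every control library. The log2 fold change was -0.71 ± 0.03 (SE, adjusted p = 7.12e-20, edgeR's quasi-likelihood test), a loss of 39% of the control level. PSMA3, its fellow subunit in the ring, stood at 175.1, 188.0, 173.9, 178.9 and 171.9 CPM in the controls and at 232.9, 212.1, 239.0, 234.5 and 231.2 CPM after knockdown. The groups did not overlap, and replicate 2 was the lowest knockdown library. PSMA3 rose by 0.37 ± 0.03 on the log2 scale (SE, adjusted p = 1.35e-11, edgeR's quasi-likelihood test).

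PSMA7 showed the same direction at a higher level. It read 356.4, 375.8, 338.8, 357.3 and 360.5 CPM in the controls and 429.6, 400.2, 416.7, 427.2 and 431.6 CPM after knockdown, with no overlap, and rose by 0.24 ± 0.03 (log2, SE, edgeR adjusted p = 2.15e-08). PSMA1 (0.09), PSMA6 (0.06), PSMA5 (-0.07) and PSMA2 (-0.15) had overlapping groups and adjusted p-values between 0.0216 and 0.556 in edgeR's quasi-likelihood test. The opposite moves of PSMA3 and PSMA4 changed their ratio: per kilobase of merged exons, PSMA4 stood at 0.667 ± 0.0237 of the PSMA3 level in the controls (SD, n = 5) and at 0.314 ± 0.0102 after knockdown, with ranges of 0.627 to 0.687 and 0.307 to 0.332. The values of this ratio depend on the lengths: with the longest transcript of each gene they were 0.439 ± 0.0156 and 0.207 ± 0.00669.

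In the beta ring, 5 of 6 tested genes rose and none fell, against 30.3% and 32.1% of all genes, and their median log2 fold change was 0.20. PSMB2, a subunit without catalytic activity, had the largest rise: it stood at 189.2, 190.4, 181.3, 187.0 and 186.1 CPM in the controls and at 243.4, 218.3, 241.6, 237.4 and 237.3 CPM after knockdown. All knockdown libraries lay above all controls, with replicate 2 lowest. The change was 0.33 ± 0.03 (log2, SE, edgeR adjusted p = 2.74e-11). PSMB1, likewise non-catalytic, went from 228.3 ± 5.21 to 281.9 ± 7.24 CPM (SD, n = 5), a rise of 0.30 ± 0.03 (log2, SE, edgeR adjusted p = 3.08e-11), and its groups did not overlap. The rise of PSMB4, the third subunit of this kind, was smaller, 0.14 (edgeR adjusted p = 1.58e-05).

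The 3 subunits that hold the active sites did not move alike. PSMB7, with the trypsin-like site, rose from 132.1 ± 3.68 to 154.3 ± 6.89 CPM (SD, n = 5, log2 fold change 0.22, edgeR adjusted p = 2.81e-07) without overlap. PSMB6, with the caspase-like site, rose from 102.0 ± 4.83 to 115.4 ± 6.49 CPM (log2 fold change 0.18, edgeR adjusted p = 1.38e-04), and knockdown replicate 2, at 105.5 CPM, lay inside the control range, which reached 106.9 CPM. PSMB5, with the chymotrypsin-like site, was not called: its level went from 159.7 ± 5.13 to 151.7 ± 6.48 CPM, a log2 fold change of -0.07 with a 95% interval of -0.14 to -0.01 (edgeR adjusted p = 0.0364). The pairwise differences between these changes were not tested.

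**Figure D2:**
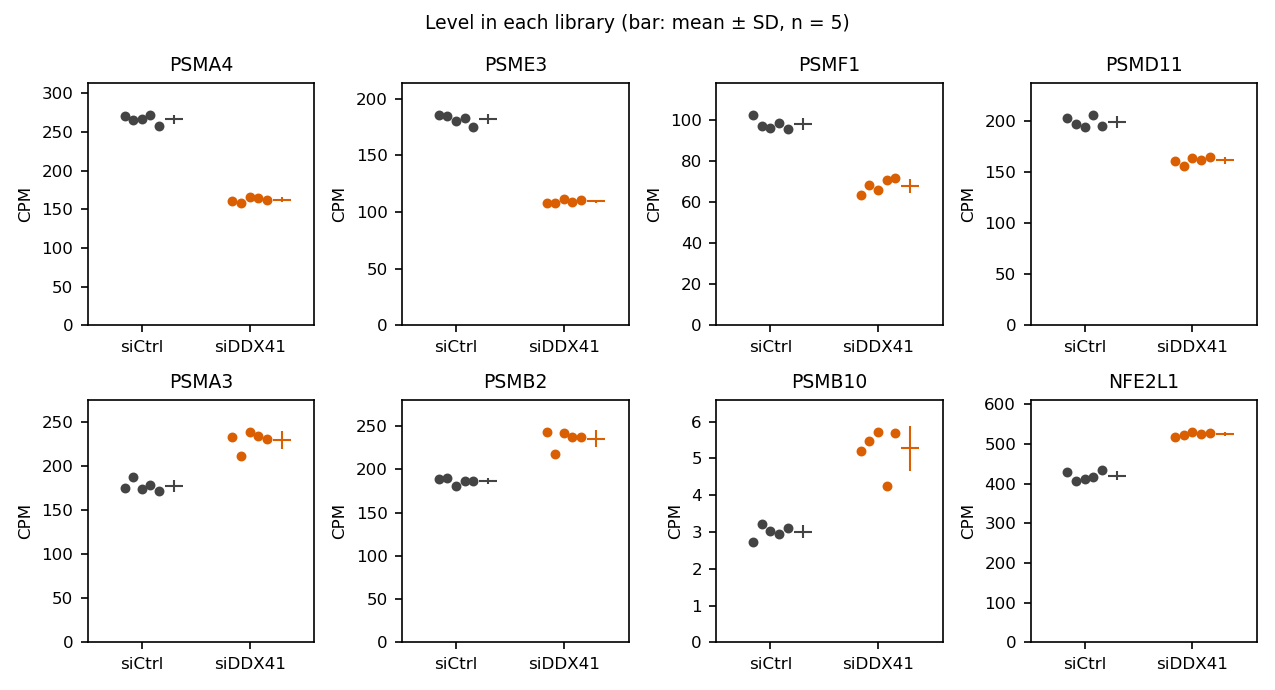
CPM in each library for 8 members, with siCtrl libraries on the left and siDDX41 libraries on the right of each panel, points in the order of the replicate numbers, and a cross for the mean ± SD (n = 5), and every axis starts at 0. The groups do not overlap in any panel: PSMA4, PSME3, PSMF1 and PSMD11 are lower after knockdown, and PSMA3, PSMB2, PSMB10 and NFE2L1 are higher.

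Of the immunoproteasome subunits, PSMB10 alone could be tested. It is the counterpart of PSMB7 and stood at 2.74, 3.22, 3.03, 2.95 and 3.12 CPM in the controls and at 5.20, 5.47, 5.72, 4.26 and 5.70 CPM after knockdown. The groups did not overlap, and knockdown replicate 4 was the lowest of its group. The rise of 0.81 ± 0.10 (log2, SE, edgeR adjusted p = 3.19e-08) was the largest among the tested members, at the low end of their levels: all 10 libraries together held 977 counts. The PSMB7 level per kilobase was 40.0 ± 3.10 times that of PSMB10 in the controls (SD, n = 5) and 26.9 ± 3.70 times after knockdown. PSMB10 shares 39.4% of its exon bases with an unnamed gene on the same strand, ENSG00000261884, which held 522 counts and changed by 0.79 (log2, edgeR adjusted p = 2.86e-06). How reads were split between this pair is not stated, and its part in either value was not tested.

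PSMB8 and PSMB9, the counterparts of PSMB5 and PSMB6, were listed at 0 in all 10 libraries. They lie in the major histocompatibility complex, where 10 of the 10 nearest genes of PSMB8 and 9 of 10 of PSMB9 held at most 2 counts in all libraries together, among them TAP1 and TAP2, the peptide transporter, at 0. The 20S subunit PSMB3 and the ATPase PSMC4, which every cell needs, held 1 count each over all libraries. Around PSMB3 7 of 10 neighbours held at most 2 counts, and around PSMC4 8 of 10 did, among them FBL, the nucleolar methyltransferase fibrillarin, at 0. These 4 genes are therefore given as listed at or near 0, without a level, and what set these values was not tested. The tissue-specific subunits PSMA8, of the testis, and PSMB11, of the thymus, held 1 and 2 counts over all libraries.

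In the 19S base, 5 of 8 tested genes rose and none fell, with a median of 0.10, against 30.3% and 32.1% of all genes. PSMC1, one of the ring of ATPases that unfolds substrates, read 47.1, 43.1, 45.4, 45.5 and 44.1 CPM in the controls and 55.1, 52.4, 59.4, 59.2 and 53.4 CPM after knockdown. The groups did not overlap, and the change was 0.31 ± 0.04 (log2, SE, edgeR adjusted p = 5.41e-08). On the opposite strand NRDE2 covers 76.1% of the PSMC1 exon bases, and it fell by 0.17 on the log2 scale (edgeR adjusted p = 0.00704). PSMD1, the large scaffold of the base, read 320.0, 325.8, 313.2, 331.3 and 313.7 CPM in the controls and 385.2, 370.8, 400.1, 394.4 and 388.1 CPM after knockdown. It too was higher in every knockdown library, by 0.27 ± 0.03 (log2, SE, edgeR adjusted p = 3.00e-10).

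Smaller rises were called for the ATPases PSMC5 (0.16) and PSMC3 (0.10) and for the ubiquitin receptor PSMD4 (0.10). The call of PSMD4 was lost in 4 of the 10 fits that left out 1 library, with edgeR adjusted p-values of 0.0101 to 0.0158. PSMC5 shares 15.3% of its exon bases with FTSJ3 on the opposite strand, which rose by 0.24. The other large scaffold, PSMD2, stood at 640.9 ± 20.1 CPM in the controls and 622.5 ± 18.5 CPM after knockdown (SD, n = 5, -0.04, edgeR adjusted p = 0.169), with overlapping groups. The ATPases PSMC2 (-0.04) and PSMC6 (0.00) were not called either.

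In the lid, 5 of 9 genes rose and PSMD11 fell, read against the same 30.3% and 32.1%. PSMD11, a scaffold subunit at the contact between lid and core, stood at 203.3, 197.1, 193.9, 206.4 and 194.9 CPM in the controls and at 160.9, 156.3, 163.6, 162.1 and 165.1 CPM after knockdown. Every knockdown library was lower than every control. The change of -0.30 ± 0.03 (log2, SE, edgeR adjusted p = 6.87e-11) was the only fall in the 19S particle among its 17 tested genes. The rises in the lid were smaller: PSMD6 went from 83.5 ± 2.84 to 97.3 ± 1.99 CPM (SD, n = 5, 0.22, edgeR adjusted p = 2.93e-07), and PSMD13 from 127.8 ± 3.64 to 148.8 ± 4.71 CPM (0.22, edgeR adjusted p = 1.50e-07), both without overlap.

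PSMD8 rose by 0.14, and the deubiquitinase PSMD14, which removes the ubiquitin chain, by 0.10 with overlapping groups. Without control replicate 5 the PSMD14 call was lost (edgeR adjusted p = 0.0102). SEM1, the smallest lid subunit, stood at 154.5, 154.1, 152.2, 158.9 and 150.3 CPM in the controls and at 166.0, 159.0, 161.7, 171.1 and 166.4 CPM after knockdown. The lowest knockdown library, replicate 2, exceeded the highest control by a narrow margin, and the change was 0.10 ± 0.03 (log2, SE, edgeR adjusted p = 0.00266). The SEM1 call was lost without control replicate 5 or without knockdown replicate 4 (edgeR adjusted p = 0.0119 and 0.011). The lid subunits PSMD3 (0.06), PSMD12 (0.06) and PSMD7 (0.03) were not called. Within the lid, the PSMD11 level per kilobase was 0.956 ± 0.0147 of the PSMD13 level in the controls (SD, n = 5) and 0.667 ± 0.0166 after knockdown.

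Taking the 20S and 19S subunits together, 17 of 30 tested genes rose (56.7%) and 2 fell (6.67%), against 30.3% and 32.1% of all genes, and these 2 were PSMA4 and PSMD11. With a log2 fold change beyond 0.25 also required, 16.7% of these subunits rose and 6.67% fell, both below the 21.1% and 25.4% of all genes.

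**Figure D3:**
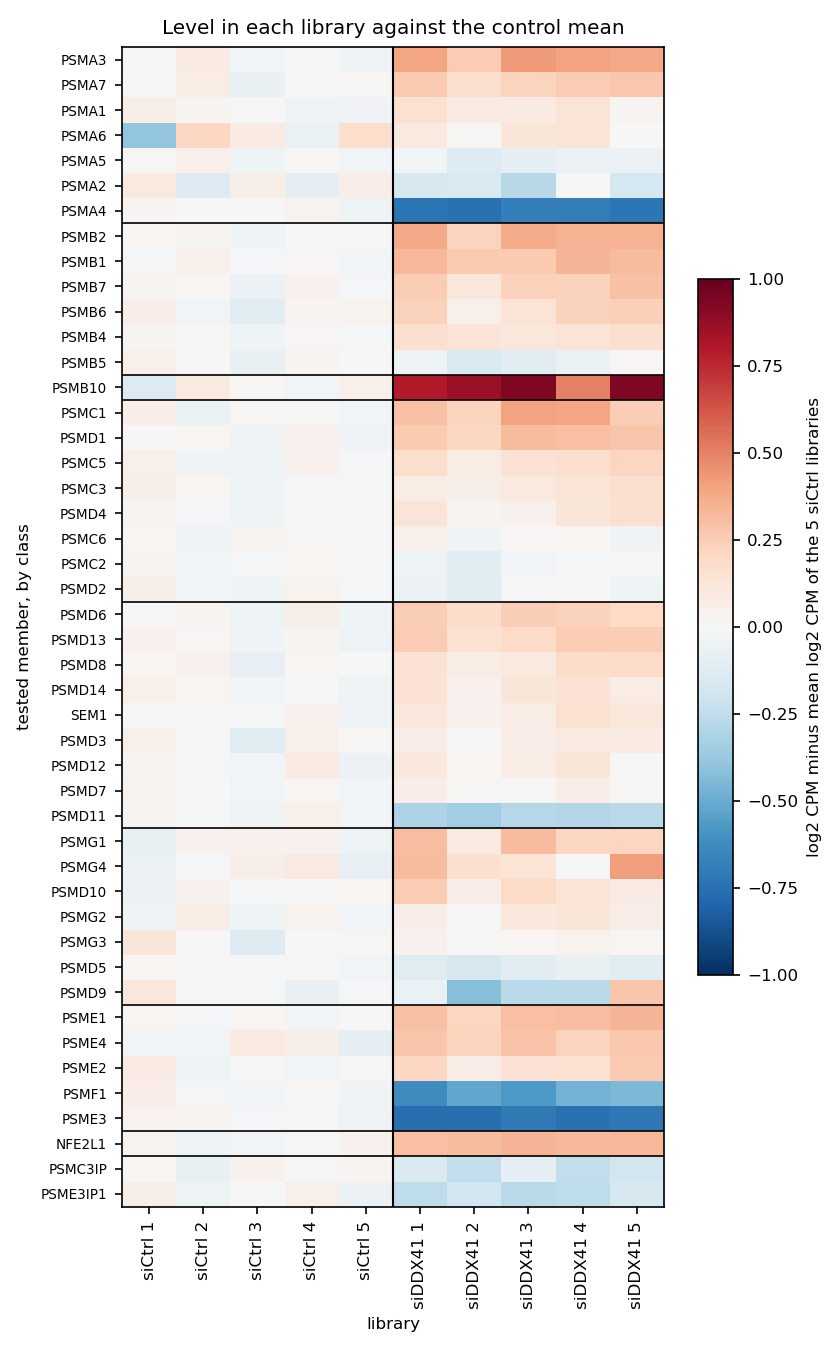
Log2 CPM of each tested member (rows, by class from the alpha ring at the top to the genes that are not subunits at the bottom) in each of the 10 libraries (columns), minus the mean of the 5 siCtrl libraries, where red is higher and blue lower. The 5 knockdown columns are alike for PSMA4, PSME3 and NFE2L1, knockdown replicate 2 is paler in most rising members, and PSMA6, PSMG4 and PSMD9 vary between libraries of the same group.

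Among the assembly factors, 2 of 7 rose and 1 fell, so that the rising share was close to the 30.3% of all genes. PSMG1, a chaperone that pairs with PSMG2 to start the alpha ring, read 17.5, 19, 19, 19 and 17.8 CPM in the controls and 22.8, 19.6, 23.0, 21.3 and 21.4 CPM after knockdown. The groups did not overlap, though replicate 2 came close to the controls, and the change was 0.23 ± 0.05 (log2, SE, edgeR adjusted p = 2.90e-04). Its partner PSMG2 (0.07) was not called, nor were PSMG3 (0.02) and PSMG4 (0.21, edgeR adjusted p = 0.0119), which form the chaperone pair that acts next. PSMG4 gained a call in 5 of the 16 alternative fits. Of the chaperones that build the base, PSMD10 rose from 33.6 ± 0.871 to 37.2 ± 2.04 CPM (SD, n = 5, 0.15, edgeR adjusted p = 0.00279), and PSMD5 fell from 72.8 ± 0.975 to 67.2 ± 1.43 CPM (-0.12, edgeR adjusted p = 0.00148). The PSMD10 call was lost without control replicate 1 or without knockdown replicate 1 (edgeR adjusted p = 0.0116 and 0.0143). PSMD9, another base chaperone, was not called (-0.13, edgeR adjusted p = 0.229), and its knockdown libraries ran from 5.39 to 8.77 CPM around control values of 6.89 to 7.84 CPM.

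All 5 activators and inhibitors of the core were called, 3 up and 2 down, where 30.3% of all genes were up and 32.1% down. PSME3, which forms the nuclear activator of the core, stood at 186.1, 185.2, 180.5, 183.1 and 175.5 CPM in the controls and at 108.2, 108.1, 111.3, 108.6 and 110.9 CPM after knockdown. The groups were far apart, and the change of -0.73 ± 0.03 (log2, SE, edgeR adjusted p = 7.69e-20) was the largest fall of any tested member. PSMF1, which binds and inhibits the core in vitro, was singled out after its values were seen. It stood at 102.8, 97.1, 96.4, 98.8 and 95.6 CPM in the controls and at 63.4, 68.6, 66.0, 70.7 and 71.7 CPM after knockdown, with no overlap, and changed by -0.53 ± 0.03 (log2, SE, edgeR adjusted p = 4.03e-14).

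The other 3 genes of this class rose. PSME1, which forms the cytoplasmic activator together with PSME2, read 138.4, 135.6, 138.3, 134.4 and 136.6 CPM in the controls and 167.8, 158.3, 168.3, 168.9 and 173.3 CPM after knockdown. No library of either group reached the other, and the change was 0.29 ± 0.03 (log2, SE, edgeR adjusted p = 2.15e-10). Its partner PSME2 rose by 0.17 (edgeR adjusted p = 6.06e-05), with knockdown replicate 2 at 131.0 CPM below the highest control at 132.4 CPM, and the large nuclear activator PSME4 rose by 0.25 (edgeR adjusted p = 1.49e-08). PSME1 and PSME3 code for related proteins, and per kilobase the PSME1 level was 2.18 ± 0.0591 times that of PSME3 in the controls (SD, n = 5) and 4.44 ± 0.120 times after knockdown. The 2 genes that are not subunits both fell: PSME3IP1, whose product binds PSME3, from 91.4 ± 3.47 to 78.2 ± 2.59 CPM (-0.22, edgeR adjusted p = 6.63e-07), and PSMC3IP, a meiotic recombination factor, from 26.7 ± 0.847 to 23.5 ± 1.12 CPM (-0.18, edgeR adjusted p = 9.40e-04). For PSMC3IP, 30.1% of the exon bases are covered by MLX on the opposite strand.

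NFE2L1 RNA was higher in every knockdown library. It stood at 429.4, 407.6, 412.2, 415.9 and 433.4 CPM in the controls and at 517.3, 522.8, 530.7, 524.1 and 527.5 CPM after knockdown. The knockdown libraries were close to each other and well above the controls, and the change was 0.32 ± 0.03 (log2, SE, edgeR adjusted p = 2.10e-12). The protein is controlled after translation, by retrotranslocation from the endoplasmic reticulum, deglycosylation and cleavage, so the RNA gives no level of the active factor.

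Levels of different members were compared per kilobase of merged exons. Median levels in the controls were 88.4 CPM per kilobase for the beta ring, 44.1 for the base, 34.9 for activators and inhibitor, 31.4 for the alpha ring, 28.1 for the lid and 12.6 for the assembly factors, against 1.85 for PSMB10. With the length of the longest transcript the medians were 99.0 for the base, 55.5 for the lid, 47.3 for the alpha ring and 45.4 for activators and inhibitor, so that the lid came before the alpha ring and the activators. The spread inside classes was wide: in the alpha ring PSMA7 stood at 204.2 and PSMA6 at 1.09 CPM per kilobase, although the ring holds the same number of each. PSMA2, at 1.62, and the assembly factors PSMG4, at 0.862, and PSMD9, at 0.826, were also low. PSMA2, PSMA6 and PSMD9 each share 14.1% to 17.2% of their exon bases with an unnamed gene on the same strand, and that gene held 6 counts in each case.

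**Figure D4:**
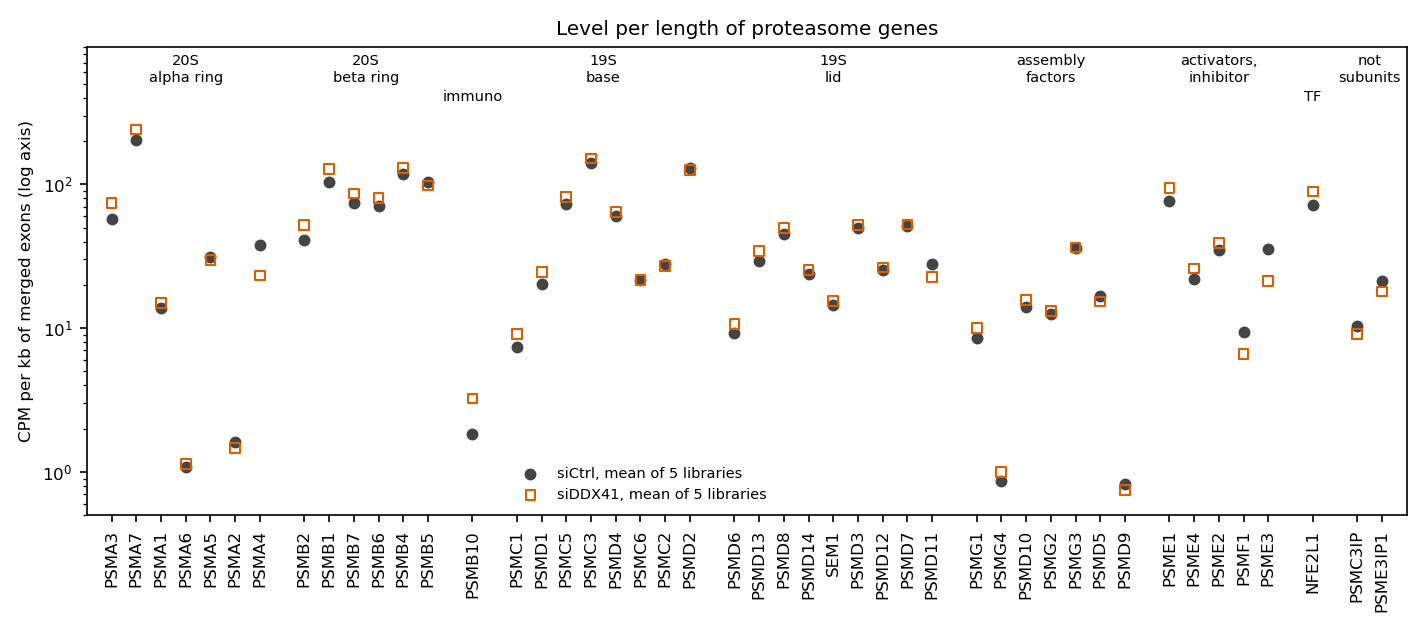
Mean level of the 46 tested members per kilobase of merged exons (CPM per kb, log axis) in siCtrl (filled circles) and siDDX41 (open squares), 5 libraries each, in the same order as the plot of fold changes. Levels run from 0.826 for PSMD9 to 204.2 for PSMA7 in the controls, while most pairs of symbols lie almost on top of each other.

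NFE2L1 and its relative NFE2L2 recognise the antioxidant response element with small MAF partners, and its core letters were looked for in the promoters of the members. The windows were RefSeq sequences on GRCh38.p14 from 250 bases before to 50 bases after the gene start, and 46 of the 52 members had one. On either strand TGACNNNGC or TGAGNNNGC was found in 20 of these (43.5%, 95% exact interval 28.9 to 58.9), against 8038 of 27305 windows of all genes (29.4%). With TGACNNNGC alone the shares were 28.3% and 13.6%. The 20S and 19S subunits held this form in 5 of 27 windows (18.5%, 95% exact interval 6.3 to 38.1) and the other members in 8 of 19 (42.1%), while either form was in 12 of 27 (44.4%) and 8 of 19 (42.1%). Stretches of this window are given below for 5 members that rose, for PSMD5, which fell, and for 2 members that were not called, to show the letters in members with different outcomes. Capitals mark the 9 bases that match, read as GCNNNGTCA or GCNNNCTCA where the match is on the other strand, and each stretch is written along its gene.
PSMA3: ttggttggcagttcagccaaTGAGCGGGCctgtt
PSME1: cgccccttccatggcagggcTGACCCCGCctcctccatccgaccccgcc
PSME4: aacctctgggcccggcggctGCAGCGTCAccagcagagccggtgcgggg
PSMG1: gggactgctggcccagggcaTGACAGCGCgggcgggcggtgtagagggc
PSMD8: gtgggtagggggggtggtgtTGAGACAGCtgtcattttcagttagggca
PSMD5: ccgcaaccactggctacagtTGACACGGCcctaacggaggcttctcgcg
PSMD3: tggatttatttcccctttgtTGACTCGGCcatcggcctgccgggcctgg
PSMD12: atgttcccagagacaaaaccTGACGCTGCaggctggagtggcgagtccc

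These stretches lie at chr14:58244809-58244842 (plus strand, PSMA3), chr14:24136088-24136136 (plus, PSME1), chr2:53970999-53971047 (minus, PSME4), chr21:39183606-39183654 (minus, PSMG1), chr19:38374497-38374545 (plus, PSMD8), chr9:120843028-120843076 (minus, PSMD5), chr17:39980750-39980798 (plus, PSMD3) and chr17:67366714-67366762 (minus, PSMD12). Members with and without the letters were found among those that rose, those that fell and those that were not called. Of 17 tested members with either form, 10 rose and 1 fell (median log2 fold change 0.14), and of 23 tested members without it 9 rose and 6 fell (median 0.06), where 30.3% of all genes rose and 32.1% fell. The 6 members with no window, PSMA7, PSMB1, PSMB6, PSMB7, PSMD4 and PSMG3, are in neither count, and 5 of them rose. With TGACNNNGC alone the split was closer: 5 of 10 tested members with it rose and 1 fell (median 0.12), and 14 of 30 without it rose and 6 fell (median 0.10). PSMD3 and PSMD12 hold the TGAC form and were not called, while PSMB10, PSMA4, PSMD11, PSME3, PSMF1 and NFE2L1 itself, which were called, hold neither form in their windows. A match is a description of the letters and not a bound site.

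Genes around the proteasome were counted from lists written from general knowledge. Of 54 tested genes in 4 lists, 22 rose and 8 fell, where 30.3% of all tested genes were called up and 32.1% down, and the counts of each list below stand against the same shares. Among 12 further proteasome components, 7 rose and 1 fell. The chaperone POMP, which guides beta ring assembly, read 94.1, 89.3, 82.0, 91.9 and 87.2 CPM in the controls and 120.9, 111.2, 116.8, 123.8 and 117.3 CPM after knockdown, a rise of 0.41 ± 0.04 without overlap (log2, SE, edgeR adjusted p = 1.93e-11). The proteasome-bound deubiquitinase UCHL5 rose by 0.41 (edgeR adjusted p = 3.73e-08). FBXO7, an F-box protein that binds PSMF1, went the other way, from 168.3 ± 2.91 to 108.2 ± 3.57 CPM (SD, n = 5, -0.64, edgeR adjusted p = 6.76e-18). FBXO7 thus fell together with PSMF1, whose decrease was -0.53.

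Of 17 tested genes for the processing and partners of NFE2L1, 7 rose and 2 fell. MAFF, a small MAF partner, went from 13.7 ± 0.392 to 30.7 ± 1.05 CPM (SD, n = 5, 1.17, edgeR adjusted p = 4.83e-19). NFE2L2 rose by 0.64 (edgeR adjusted p = 2.05e-18), and FBXW7, the recognition subunit of a ubiquitin ligase, by 0.63 (edgeR adjusted p = 4.25e-15). The protease gene DDI2, whose product cleaves NFE2L1 (0.11), and the deglycosylase NGLY1 (-0.09) were not called.

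Of 14 genes for ubiquitin and for shuttles that carry tagged proteins to the proteasome, 2 rose and 3 fell. RPS27A, which codes for ubiquitin fused to a ribosomal protein, fell by 0.28 on the log2 scale (edgeR adjusted p = 6.19e-11). SQSTM1, the receptor that passes ubiquitin-tagged cargo to autophagy, rose by 0.29 (edgeR adjusted p = 2.83e-10). The shuttle RAD23B rose by 0.25 (edgeR adjusted p = 6.53e-09).

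Of 11 tested genes of major histocompatibility complex class I antigen processing, which uses the peptides that the proteasome makes, 6 rose and 2 fell. ERAP1, which trims these peptides, rose by 0.62 (edgeR adjusted p = 5.64e-15), and the light chain B2M by 0.39 (edgeR adjusted p = 1.38e-11). NLRC5, the activator of class I genes, fell by 0.77 on the log2 scale (edgeR adjusted p = 2.33e-11). These values are from bulk RNA, in which fewer cells with a transcript and less RNA per cell cannot be told apart.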

How the data were processed

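RNA-seq was available from U2OS cells 48 h after control or DDX41 knockdown, 5 libraries per group. Library preparation used a stranded kit for poly(A) RNA, and single reads of 84 bases were taken. The authors aligned them to hg38 by STAR 2.7 (Gencode release 25), and featureCounts 1.6 gave the deposited raw read counts, 1 value for each gene and library. The strand setting and the treatment of reads that fit several genes or places are not given in the sources used here. Reads of overlapping or near-identical genes could be split differently by another counting, and 11 members share exon bases with a gene that holds at least 10% of their own counts. Gene names, exon lengths and overlaps were taken from GENCODE release 44 on the same build, which matched 90% of the identifiers (56948 of 63299). Of these identifiers, 32705 had at least 1 count.

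Groups and replicate numbers came from the sample labels. The comparison was made with edgeR 4.0.16 under R 4.3.3. Genes were filtered with filterByExpr on the groups, libraries were scaled with TMM factors, and glmQLFit in its robust form was followed by glmQLFTest. P-values were adjusted by Benjamini-Hochberg over the 16143 genes tested and called under 0.01, and standard errors were derived from the F statistic. The study's methods name DESeq2, which was run here in version 1.42.0 as an alternative. Tables and figures were made with Python 3.11.15, pandas 2.3.3 and matplotlib 3.10.9. The fit was tested on simulated data. The biological coefficient of variation was 3.65%, and no pair of libraries in a group agreed within sampling noise (chi-square per degree of freedom 1.76 to 5.67 over 20 pairs). Depth limits the genes of low count, such as PSMB10 with 977 counts in all.

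The members, classes, lists and motif were chosen with earlier results of these data known. Genes were named by a rule: DDX41, NFE2L1, SEM1, the immunoproteasome genes and every untested member, in each class of subunits, assembly factors and activators the called genes with the largest rise and fall (2 of each in classes of 7 or more), and in each further list the 3 genes with the smallest adjusted p. Members outside the rule are named so that each one is accounted for, and some genes that the rule names in the further lists are not reported here. A ratio of immunoproteasome to constitutive subunits was planned and not computed, because PSMB8 and PSMB9 are listed at 0. Alternatives changed the scaling, filter, test, threshold, block, lengths, motif and libraries.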

Additional observations from a re-analysis of the deposited data

Results flagged for a closer look

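Among 92 groups of 5 libraries, 1 for each tested member and condition, the gap between an extreme library and its nearest neighbour exceeded Dixon's critical value of 0.71 of the group's range in 2, and chance alone marks about 1 in 20 groups. In PSMB2, DDX41 knockdown replicate 2 stood at 218.3 CPM, below the next library at 237.3 CPM and the highest at 243.4 CPM, so that the gap made up 0.758 of the range. Without that library PSMB2 kept its rise, and the fits with 1 library left out gave 0.32 to 0.36. In PSMD3, control replicate 3 stood at 226.9 CPM, below 248.1 CPM for the next library and 256.0 CPM for the highest, a gap of 0.729 of the range. PSMD3 was not called in any fit with 1 library left out, where its log2 fold change lay between 0.03 and 0.08.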

How the results depend on the processing

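Of 31 called members, 27 had the same call in all 16 alternative fits. The exceptions were PSMD4, PSMD14, SEM1 and PSMD10, each lost in some fits with 1 library left out: SEM1 without control replicate 5 (adjusted p = 0.0119) or knockdown replicate 4 (0.0110), and PSMD10 without control replicate 1 (0.0116) or knockdown replicate 1 (0.0143). PSMD4 was lost in 4 such fits. Of the uncalled members, 7 gained a call in some alternative, PSMG4 in 5 fits (adjusted p = 0.00232 to 0.00973) and PSMA1, PSMA2, PSMA5, PSMB5, PSMG2 and PSMD9 in 1 each. No direction of a called member reversed. Leaving out 1 library at a time gave 22 to 25 rising and 7 to 8 falling members, 20 to 22 rising and 7 to 9 falling genes of the further lists, 4648 to 4823 genes up and 4968 to 5121 down, and log2 fold changes of -2.04 to -1.96 for DDX41 and 0.31 to 0.33 for NFE2L1. DESeq2's Wald test called 24 members up and 7 down. A log2 fold change beyond 0.25 left 9 rising and 4 falling of 46 tested members. In the further lists it left 15 rising and 4 falling of 54 tested genes. At this size 21.1% of all tested genes were called up and 25.4% down. Without the 14 members that share exons with a same-strand gene or with a gene of at least 10% of their counts, an alternative added after seeing the data, 19 of the 32 tested members that stayed rose and 5 fell. Deviations from the group means showed no clear effect shared by libraries of the same replicate number (correlations -0.078 to 0.0598). This cannot show whether the libraries were prepared in pairs, which the labels do not say. With the replicate block 24 members rose and 7 fell, 22 and 8 genes of the further lists were called, NFE2L1 stood at 0.32 and DDX41 at -1.99. With the length of the longest transcript, median levels per kilobase were 119.5 for the beta ring, 99.0 for the base, 55.5 for the lid, 47.3 for the alpha ring, 45.4 for activators and inhibitor, 21.5 for assembly factors, 3.08 for PSMB10, 86.7 for NFE2L1 and 25.7 for genes that are not subunits, so the order of lid, alpha ring and activators depends on the length used. The same lengths were added after seeing the data for ratios between members. They moved the PSMA4 to PSMA3 ratio to 0.439 in the controls and 0.207 after knockdown, and PSMD11 to PSMD13 to 0.89 and 0.621. In the same order, the PSMB7 to PSMB10 ratio became 43.7 and 29.4, and PSME1 to PSME3 2.22 and 4.53. With TGACNNNGC alone, 28.3% of member promoters and 13.6% of all promoters held the motif. Other scalings shifted all log2 fold changes by -0.0115 to 0.0165. The ratio of immunoproteasome to constitutive subunits was not run. Depth limits the members of low count, such as PSMB10, PSMG4, PSMD9 and PSMA6, where standard errors are widest.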
